A study of Mus musculus with 4 samples.

Results

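The MEF2 transcription factors are encoded in the mouse by the 4 genes Mef2a, Mef2b, Mef2c and Mef2d. They were chosen by name as a gene family, with earlier results of these data known, and all 4 had a row among the 13792 genes listed in each RNA library. The cells were naive B cells from mice of the inbred strain C57BL/6, which received a retrovirus in vitro and were then kept in culture with antibodies against IgM and CD40, used to mimic signals from antigen and helper T cells. In the RVKM-Empty group the virus carried no insert (hereafter the empty vector), and in the RVKM-Ascl2 group it carried Ascl2, a basic helix-loop-helix transcription factor that binds E-boxes. There was 1 library per group, so no value has a replicate error, no difference has a replicate check, and no test was made. The share of infected cells, the culture time and the age of the mice were not stated by the labels. The chromatin samples of the series, from germinal centre B cells taken 7 days after KLH immunisation, were not analysed here.

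MEF2 proteins bind DNA as dimers through an N-terminal MADS box and an adjacent MEF2 domain, and they recognise an AT-rich element, the MEF2 site. Without a signal they are held inactive by class IIa histone deacetylases and other corepressors. Calcium, through calcineurin and calmodulin-dependent kinases, and the kinases p38 and ERK5 turn them into activators. In B cells Mef2c is needed for proliferation after stimulation of the antigen receptor, while Mef2b is known from germinal centre B cells, where its protein activates Bcl6, and from lymphomas that arise from them. The comparison asked how the family's RNA stood when Ascl2 was introduced into activated B cells.

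The regions before transcript starts of 3 of the genes are shown because the inserted factor binds E-boxes and because MEF2 proteins can bind their own family's genes. Sequences are RefSeq's, on the build GRCm38.p6, read 5′ to 3′ on the strand of the gene. Mef2b, the member with the largest difference, is on chromosome 8 (70152761 to 70167488), and the 250 bases before its start are chr8:70152511-70152760, plus strand. Mef2d, the member that was lower with Ascl2, is on chromosome 3 (88141941 to 88172091), and the window shown is chr3:88142122-88142371, plus strand. It is the 250 bases before the transcript start in the RefSeq table, which lies 431 bases inside the outer bound of the gene. For both, capitals mark any E-box (CANNTG, searched on both strands, which for this motif gives the same sites). Mef2a is on chromosome 7 (67231163 to 67376456), and its window chr7:67372851-67372978, minus strand, is shown for the MEF2 site in capitals. That site is at the transcript start in the table, an internal start 3598 bases inside the outer bound of the gene.
Mef2b: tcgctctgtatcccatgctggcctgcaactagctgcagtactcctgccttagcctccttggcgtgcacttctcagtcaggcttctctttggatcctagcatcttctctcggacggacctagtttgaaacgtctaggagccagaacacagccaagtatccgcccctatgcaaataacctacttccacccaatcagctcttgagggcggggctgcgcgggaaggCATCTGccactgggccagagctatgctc
Mef2d: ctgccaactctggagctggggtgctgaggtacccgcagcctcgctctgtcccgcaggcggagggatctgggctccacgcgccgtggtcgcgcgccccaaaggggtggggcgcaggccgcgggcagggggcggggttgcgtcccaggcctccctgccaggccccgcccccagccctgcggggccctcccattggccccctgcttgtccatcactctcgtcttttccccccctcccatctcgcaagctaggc
Mef2a: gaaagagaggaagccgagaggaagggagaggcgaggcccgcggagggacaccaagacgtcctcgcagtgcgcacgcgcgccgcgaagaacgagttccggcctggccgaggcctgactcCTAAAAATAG

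All 4 genes matched the RefSeq promoter windows, which run from 250 bases before to 50 bases after a start. Mef2c (chromosome 13, 83504017 to 83667079) had 3 windows and each of the others had 1. The Mef2b window held 2 E-boxes, CATCTG from 28 to 23 bases before the start and CAGGTG from base 44 to base 49 after it. The 3 Mef2c windows held 3 E-boxes in all. CAAGTG and CATATG were both in the window at the lowest coordinate, and CAGATG was in the one at the highest. The Mef2c window between them held none, nor did the windows of Mef2a and Mef2d. An E-box of any kind was present in 72.3% of all 32851 windows. CAGCTG, an E-box form bound by ASCL factors and a subset of CANNTG, was in none of the 6 windows of the family and in 16.3% of all windows. Whether ASCL factors bind the other forms found, such as CAGGTG in the Mef2b window, was not examined. The MEF2 site occurred once, in Mef2a, where it ran from 2 bases before the start to base 8 of the transcript, and it was present in 3.19% of all windows. The 250 bases before the start had a GC content of 56.0% in Mef2b and 73.2% in Mef2d, against a median of 52.4% over all windows. These matches describe the letters of the windows and are not binding sites measured here.

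The deposited values are abundances that appear scaled for both sequencing depth and gene length, so levels can be compared between genes only as far as that scaling holds. They summed to 750692 in RVKM-Empty and 763932 in RVKM-Ascl2, and their medians were 10.2 and 10.2. The depth of each library is unknown. For the 1842 genes that stayed under 1.2, the ratio of the Ascl2 to the empty-vector value peaked at 1.15. That interval held 42 genes, against a median of 12.5 in the 20 neighbouring intervals, and only a limited range of ratios was searched. The peak could reflect an empty-vector library deeper by that factor, if the values were scaled by total counts. How the values were scaled is not known, so this reading was not tested. Ascl2 itself was 0.0809 in RVKM-Empty and 29.4 in RVKM-Ascl2, which goes with the labels. Each log2 ratio below was taken after adding 1 to both values, with the empty vector as the denominator, and this scale understates differences of low genes.

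Mef2c was the most abundant member in both libraries, and the whole family was detected in both. Its value was 372.9 in RVKM-Empty and 409.9 in RVKM-Ascl2, so it was the 210th highest of 13792 genes in the first library and the 207th in the second. Mef2c RNA was thus among the more abundant transcripts of these stimulated B cells with either virus. Its log2 ratio of 0.14 corresponded to a value 9.93% higher with Ascl2.

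Mef2a, a widely expressed member, came next in order of level. Its value was 80.3 in RVKM-Empty and 91.0 in RVKM-Ascl2, or 13.3% higher, with a log2 ratio of 0.18. The place of Mef2a among all genes was 1235th and 1047th. The level of Mef2c was 4.64 times that of Mef2a with the empty vector and 4.50 times with Ascl2, so these members kept nearly the same proportion to each other.

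Mef2d, also widely expressed and studied in T cells and neurons, was the single member that was lower with Ascl2. It had a value of 51.4 in RVKM-Empty and 39.9 in RVKM-Ascl2, a log2 ratio of −0.36, and went from the 1970th to the 2461st place. The level of Mef2a was 1.56 times that of Mef2d with the empty vector and 2.28 times with Ascl2.

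Mef2b differed most between the libraries. With the empty vector its value was 10.2, close to the median of all listed genes and the lowest of the family, and with Ascl2 it was 47.3. The value was 4.62 times as high and the log2 ratio was 2.10. Mef2b moved from the 6893rd to the 2046th place among 13792 genes, past Mef2d. The level of Mef2d was 5.03 times that of Mef2b with the empty vector, whereas with Ascl2 the level of Mef2b was 1.18 times that of Mef2d.

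**Figure D1:**
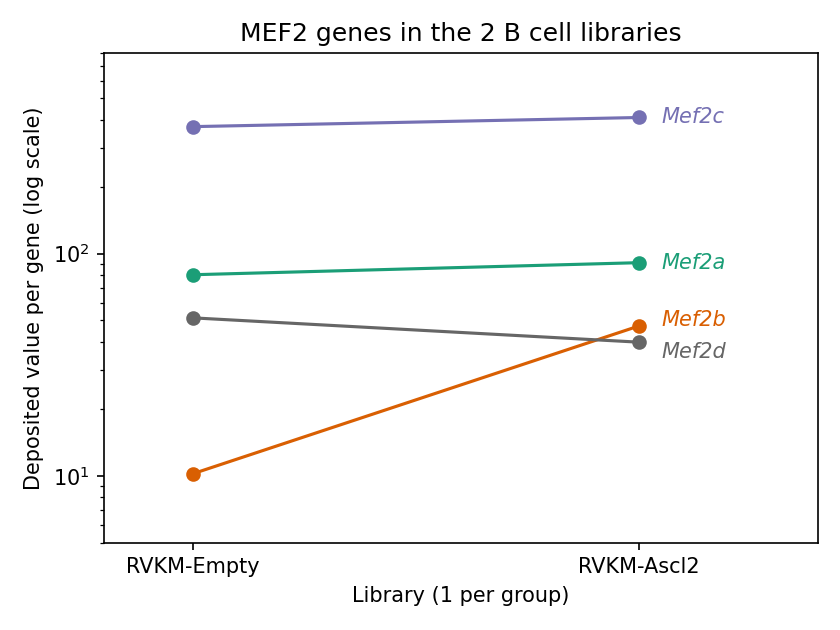
Deposited value of each MEF2 gene (log axis) in the RVKM-Empty and RVKM-Ascl2 libraries, 1 library per group and no error bars; lines join the values of 1 gene. Mef2b goes from 10.2 to 47.3 and crosses Mef2d, which goes from 51.4 to 39.9, while Mef2c and Mef2a stay first and second.

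The order of the levels was therefore Mef2c, Mef2a, Mef2d, Mef2b with the empty vector and Mef2c, Mef2a, Mef2b, Mef2d with Ascl2. With 1 library per group there is no spread against which neighbours in either order could be set. In a bulk library, more cells that express Mef2b and more Mef2b RNA per cell cannot be told apart.

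Of the 12283 genes that reached 1 in either library, the Ascl2 value was at least 2-fold higher in 188 (1.53%) and at least 2-fold lower in 88 (0.716%). All 4 MEF2 genes passed that filter, of which Mef2b was the only member called higher and no member was called lower. Without immunoglobulin genes the background was 0.838% higher and 0.714% lower. Because the family was picked with this comparison in view, the count is a description. Ratios of at least 4-fold, as that of Mef2b, were found in 24 genes (0.195%). Mef2b had the 20th highest log2 ratio of the 12283 genes, and 18 of the 19 genes above it were not immunoglobulin genes. Of the family, 3 genes had a ratio above 0, as did 48.4% of all genes. The other three members lay with the 90.7% of genes that differed by less than 1.5-fold. The quartiles of all log2 ratios were −0.22 and 0.19, around a median of −0.01, and their 5th and 95th percentiles were −0.55 and 0.58. Mef2a and Mef2c lay between the quartiles, and Mef2d between the lower quartile and the 5th percentile. Scaling both libraries to the same sum without immunoglobulin genes and the 10 highest genes raised all Ascl2 values by 0.11 on the log2 scale. It gave 244 genes higher and 65 lower. Each of the 4 rescalings raised the Ascl2 values, by 0.01 to 0.11 on the log2 scale, and Mef2d kept a ratio below 0 under all of them. Mef2a, Mef2b and Mef2c stayed above 0, which a rescaling upwards could not have altered. A changed pseudocount cannot change the direction of any ratio.

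**Figure D2:**
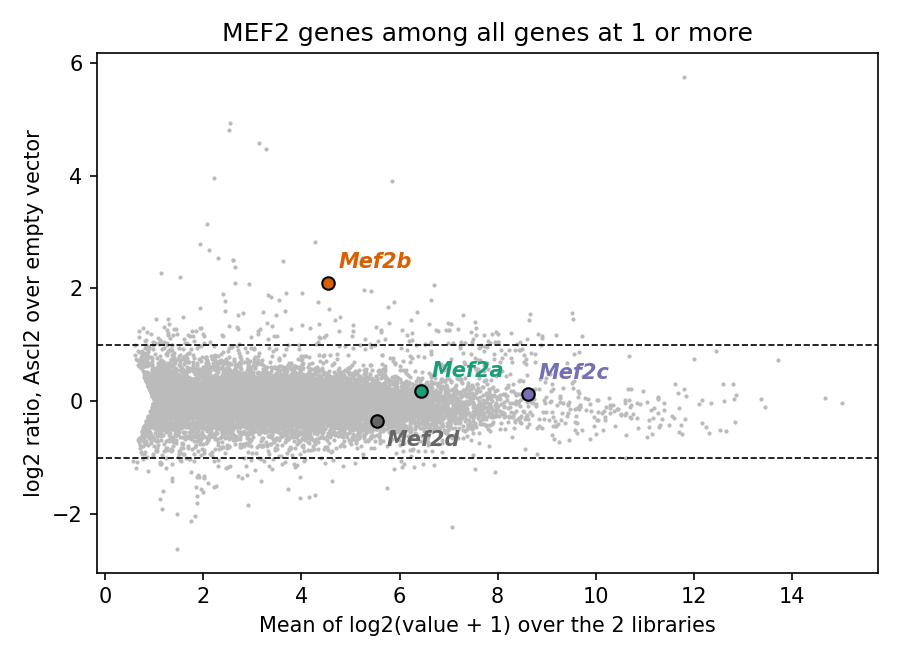
Log2 ratio of Ascl2 over empty vector (value plus 1) against the mean log2 value for the 12283 genes at 1 or more in either library (grey), with the 4 MEF2 genes in colour; dashed lines mark 2-fold. Mef2b lies at 2.10, and Mef2a (0.18), Mef2c (0.14) and Mef2d (−0.36) lie between the lines.

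The summed value of the family was 515 in RVKM-Empty and 588 in RVKM-Ascl2, or 1.14 times as high. Mef2b and Mef2c each added 37.0 to the sum, Mef2a added 10.7, and the difference of Mef2d was −11.4. The share of Mef2b in the sum was 1.99% in RVKM-Empty and 8.03% in RVKM-Ascl2. Mef2c held 72.4% and 69.7%, Mef2a 15.6% and 15.5%, and Mef2d 9.98% and 6.79%. Shares of 1 sum depend on each other: with Mef2b left out, Mef2c held 73.9% and 75.8%, Mef2a 15.9% and 16.8%, and Mef2d 10.2% and 7.38%, so the shares of Mef2c and Mef2a were then higher and not lower with Ascl2. Without Mef2b the sum was 505 in RVKM-Empty and 541 in RVKM-Ascl2, or 1.07 times as high.

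**Figure D3:**
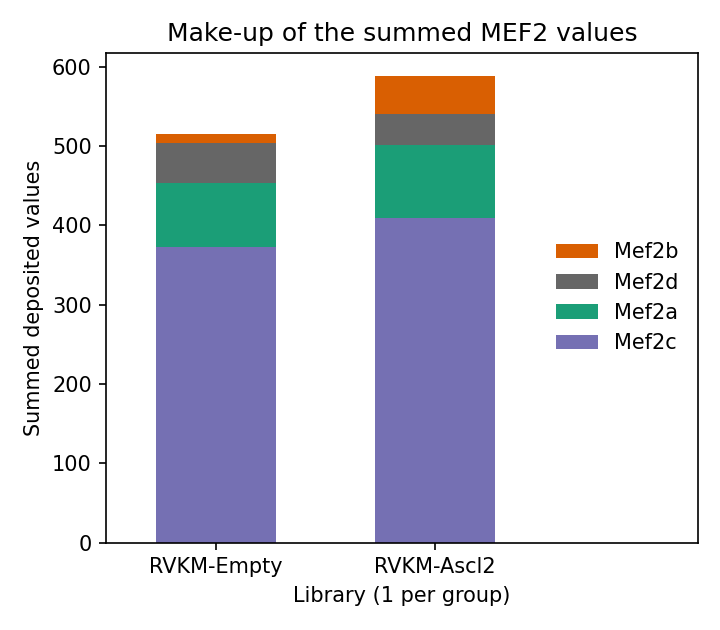
Deposited values of the 4 MEF2 genes stacked to their sum in each library, 1 library per group, axis from 0. Mef2c makes up 72.4% and 69.7% of the bars, and the Mef2b segment grows from 10.2 to 47.3.

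Genes around Mef2b were examined for how their values stood. The nearest listed gene on the lower-coordinate side, Borcs8, which encodes a subunit of a lysosome-positioning complex, ends 4125 bases from Mef2b. Borcs8 was 46.7 in RVKM-Empty and 43.4 in RVKM-Ascl2, and Tmem161a, a membrane protein gene 4840 bases away on the other side, was 22.7 and 15.6. Their log2 ratios, −0.10 and −0.52, stood far from that of Mef2b, and that of Borcs8 was so close to 0 that the sum rescaling brings it to about 0. Of 15 listed genes reaching within 200 kb of Mef2b, 12 had a log2 ratio below 0 and none was past 2-fold. Over all genes at 1 or more, 48.4% had a ratio above 0 and 2.25% were past 2-fold either way. The ratios of the 15 genes, taken without the filter on low values, ran from −0.73 to 0.47 with a median of −0.10. The highest was that of Tm6sf2, which stayed under 1 in both libraries (0.347 and 0.869), and the next was Ddx49 at 0.27. RefSeq also has a protein-coding locus, Gm45929, that spans both Borcs8 and Mef2b (chromosome 8, 70139499 to 70167488). It had no row of its own among the listed genes, and how reads shared by it and Mef2b were assigned was not stated.

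**Figure D4:**
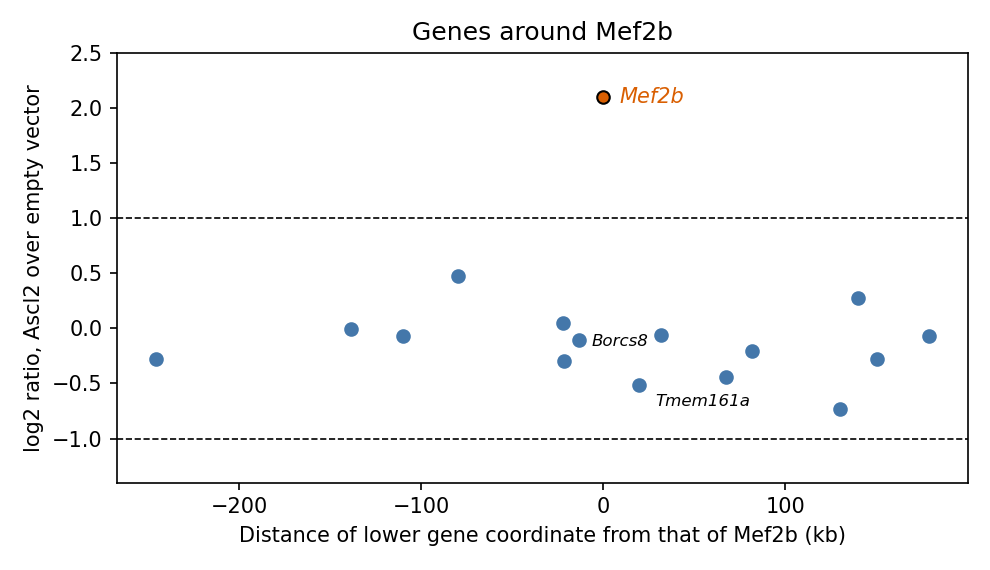
Log2 ratio of Ascl2 over empty vector (value plus 1) for Mef2b (orange) and the 15 listed genes within 200 kb of it (blue), by the distance of each gene's lower coordinate from that of Mef2b in kb; dashed lines mark 2-fold. Mef2b is at 2.10, and its neighbours, shown without a filter on low values, lie between −0.73 and 0.47.

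The nearest listed neighbours of the other members also had log2 ratios within 2-fold after adding 1 to the values. Beside Mef2a, Lysmd4 was 5.03 in RVKM-Empty and 5.05 in RVKM-Ascl2, and Lrrc28 was 18.8 and 10.9. Beside Mef2d, Iqgap3, a scaffold protein gene, was 14.3 and 13.3. The long non-coding RNA gene 1700113A16Rik, which overlaps Mef2d by 532 bases, was 2.25 and 1.10, lower with Ascl2 like Mef2d, with a log2 ratio of −0.63 that the added 1 makes smaller. Whether reads were assigned by strand is not given, so reads from the overlap cannot be told apart. Mef2c stands in a long stretch with no listed gene. Its nearest listed neighbours, Cetn3 and Tmem161b, were 1706861 and 555216 bases away and read 45.5 and 5.07 in RVKM-Empty against 49.5 and 6.49 in RVKM-Ascl2.

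RNA was next compared for the proteins that hold MEF2 factors inactive. All 7 genes of the list of class IIa histone deacetylases and corepressors passed the filter and none was past 2-fold. Over all genes at 1 or more, 2.25% were past 2-fold either way. At that share, few or none would be past it in this list or in the other short lists below. The median log2 ratio of this list was −0.10, against −0.01 over all genes, and it was 0.0085 with the sum rescaling. Hdac7, the most abundant class IIa deacetylase here, was 83.3 in RVKM-Empty and 77.5 in RVKM-Ascl2. Hdac9, which is itself a known MEF2 target, was 12.8 and 17.0 (log2 ratio 0.38). Hdac5 was 20.9 and 16.7, and Hdac4 was 5.06 and 5.03. The corepressor gene Ncor1 was 126.1 and 133.9, and Hdac3, which encodes the deacetylase that acts with it, was 34.3 and 29.2. Cabin1, which encodes a calcineurin inhibitor that binds MEF2, was 10.6 and 9.69.

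Kinases that phosphorylate class IIa deacetylases and the 14-3-3 proteins that then carry them out of the nucleus formed the next list. Of 22 genes, 20 passed the filter, and Prkd1 and Camk4 had no row. No gene was past 2-fold and the median was −0.17. Of the 20 genes, 16 had a ratio below 0 and 4 above 0, where 48.4% of all genes were above 0. Whether the list differs from that share was not tested. The salt-inducible kinase gene Sik1 was 38.6 in RVKM-Empty and 30.9 in RVKM-Ascl2, and Stk11, which encodes the kinase that activates them, was 61.0 and 48.3. The calmodulin-dependent kinase gene Camk2d was 129.7 and 112.6. Ywhae, the most abundant 14-3-3 gene of the list, was 349.1 and 310.8. The 14-3-3 gene Sfn had the ratio farthest from 0 in the list, at 8.82 and 6.21 (log2 ratio −0.45). The median of this list lay below 0 with every rescaling and pseudocount tried, between −0.17 and −0.06.

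RNA of the genes for kinases and calcium sensors that activate MEF2 factors went in both directions. In the p38 and ERK5 cascade, 10 of 12 genes passed the filter (Mapk12 and Mapk13 had no row), none was past 2-fold, and the median was 0.06. Map2k5, the kinase that activates ERK5, was 17.8 in RVKM-Empty and 11.4 in RVKM-Ascl2 (log2 ratio −0.60), and Mapk7, which encodes ERK5, was 12.5 and 10.1. Mapk14, which encodes the main p38 kinase, was 18.9 and 16.0, while Map3k2, a kinase upstream of ERK5, was 5.08 and 7.08. Of 11 calcineurin, calmodulin and NFAT genes, none was past 2-fold and the median was 0.01. The calcineurin subunit genes Ppp3ca, Ppp3cb and Ppp3cc were slightly higher with Ascl2, Ppp3cb at 56.7 and 65.1. The 3 calmodulin genes were slightly lower, Calm3 at 125.4 and 100.7.

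Among 7 MEF2 coactivator genes none was past 2-fold, and the median was 0.02. Carm1, an arginine methyltransferase, was 38.6 in RVKM-Empty and 27.0 in RVKM-Ascl2. Kat2b, an acetyltransferase, was 4.34 and 6.17, and Ep300, which encodes the acetyltransferase p300, was 22.8 and 23.1. Srf, which encodes another MADS-box factor, was 19.7 and 13.0 (log2 ratio −0.56), and its cofactor gene Mkl1 was 23.4 and 17.0. Of 6 measured genes of SRF and its cofactors, 4 had a ratio below 0, with a median of −0.12, and none was past 2-fold. Elk4 went the other way, at 32.9 and 42.2.

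Genes known as MEF2 targets in B cells, T cells, muscle or endothelium formed another list. Of 14 genes, 7 passed the filter, none was past 2-fold, and the median was −0.30 (between −0.31 and −0.20 over the alternatives). Of the 7 genes, 5 had a ratio below 0 and 2 above 0, where 48.4% of all genes were above 0. With so few genes and 1 library per group, these counts are a description only. Klf2, a factor of resting lymphocytes, was 33.9 in RVKM-Empty and 18.6 in RVKM-Ascl2 (log2 ratio −0.83). Nr4a1, induced by antigen receptor signals, was 4.44 and 2.66 (−0.57), and Jun was 28.6 and 23.0. Bcl6, the germinal centre regulator that Mef2b is known to activate, was 12.2 and 9.36 (−0.34). The 2 with a ratio above 0 were Hdac9 (0.38) and Klf6, at 11.1 and 12.0 (0.10). Mef2b and Bcl6 thus stood in opposite directions in these libraries. Ppargc1a stayed under a value of 1 in both, and the muscle genes Ckm, Des, Myog, Myom1 and Acta1 and the glucose transporter gene Slc2a4 had no row.

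Of the 12 transcription factor genes of germinal centre B cells, none was at least 2-fold higher or lower, and the median was 0.04. Bach2 and Mybl1 had the largest ratios, with Bach2 at 7.06 and 13.0 and Mybl1 at 3.69 and 6.43. Both stayed below the ratio of Mef2b, 0.80 and 0.67 against 2.10. The octamer coactivator gene Pou2af1 was 682 and 805, and Irf8, an interferon regulatory factor gene, was 199 and 172. Tcf3, which encodes an E protein that pairs with Ascl2, was 113 and 80.7.

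Across the 8 lists, 78 of 90 genes passed the filter, and none was at least 2-fold higher or lower, against 2.25% of all genes past 2-fold either way. The ratios ran from −0.83 to 0.80 with a median of −0.03, and 74 of the 78 differed by less than 1.5-fold. Mef2b stood outside this range, and the other three MEF2 genes stood inside it.

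**Figure D5:**
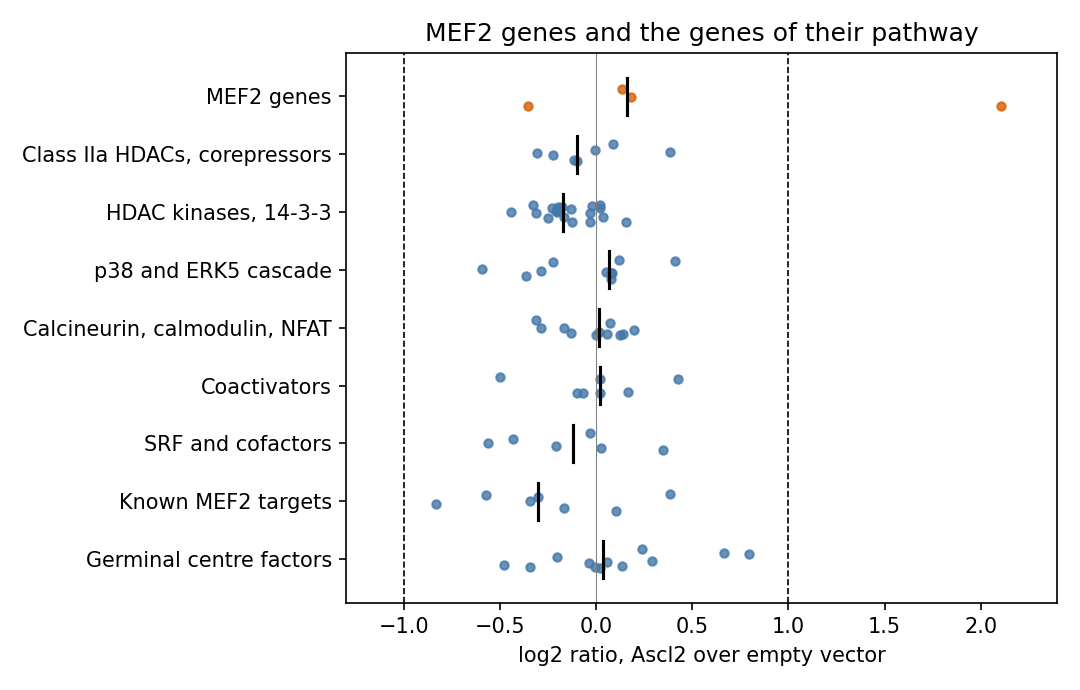
Log2 ratio of Ascl2 over empty vector (value plus 1) for the 4 MEF2 genes (orange) and for the genes of 8 lists of their pathway that reached 1 in either library (blue); black bars are medians, vertical jitter has no meaning and dashed lines mark 2-fold. Mef2b at 2.10 is the single gene outside the dashed lines.

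Genes with the most similar pair of values were named by the smallest distance on the log2(value plus 1) scale over the 2 libraries, leaving out immunoglobulin genes and predicted loci. For Mef2b these were Ets1, an ETS factor gene (10.04 in RVKM-Empty and 36.2 in RVKM-Ascl2), Atf7ip, a chromatin regulator gene (15.5 and 45.6), and Slirp, which encodes a mitochondrial RNA-binding protein (11.7 and 31.8). Their distances were 0.38, 0.56 and 0.58. The nearest gene to Mef2b was much farther away than those of the other members, whose 3 nearest genes lay at distances of at most 0.0913. This follows from its ratio, since only 24 of all genes at 1 or more were at least 4-fold higher. Mef2a was nearest to Nabp1, Ccnl1 and Eprs, Mef2c to Snrpe, Hnrnpa1 and Mtdh, and Mef2d to Mpnd, Fads2 and Get4. A pseudocount of 0.1 named the same 3 genes for each member. Only 2 values define each pattern, so likeness here is no more than similar levels.

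The cells were checked against markers. All 10 B cell markers were listed, from Pax5 at 98.4 in RVKM-Empty and 97.7 in RVKM-Ascl2 up to Cd74 at 5742 and 4168, and their summed values were 8987 and 7088. Of 10 T cell markers 3 had a row, none above 1.41, and Cd3d, Cd3e, Cd3g, Cd4 and Cd8a had none. Muscle cells, another site of Mef2c expression, had 1 of 8 markers listed, Tnnt2 at 0.507 and 0.689. Of 12 myeloid markers 8 had a row, with summed values of 275 and 291 and a median log2 ratio of 0.20. Most of both sums was Ctss, at 222.7 and 232.3, and the next highest genes were far lower. Itgam, Mpo, S100a8 and S100a9 had no row. Fcer1g was 5.71 and 9.83 and Lyz2 16.0 and 21.4, both higher with Ascl2 like Mef2b, Mef2a and Mef2c, and Cd68 was 16.2 and 10.8. The part of myeloid cells in the MEF2 values was not tested. Of 8 dendritic cell markers 4 had a row, summing to 110 and 102, and Itgax, Xcr1, Siglech and Clec9a had none. Erythroid and megakaryocyte markers (3 of 8) summed to 3.34 and 3.57. Of 8 stromal markers 4 had a row, summing to 618 and 523. Nearly all of that was Thy1 (394.8 and 346.1) and Vim (222.6 and 175.6), while Col1a1 and Col1a2 stayed at 0.512 or less. Thy1 was counted in the stromal list only and not in the T cell list. Which cells the Thy1 and Vim RNA came from was not tested.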

How the data were processed

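RNA from 2 libraries of cultured mouse B cells was analysed, grouped by the sample titles. The authors deposited 1 signal per gene and library, which appears scaled for depth and length. The unit's name, the quantifier, the annotation and strandedness were not given in the sources used here. Per the submitters' processing notes, the build was mm10 and the tools of the series included MACS2, Picard, Bowtie2 and Trim Galore, without versions or which of them served RNA. No listed gene was at 0 and each reached 0.475 in one library or the other, so a filter on low genes before deposit is likely. Of 13792 identifiers, 13752 had a symbol in the reference table.

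Log2 ratios used a pseudocount of 1, genes needed a value of 1 in at least 1 library, and 2-fold was the threshold. The values are not counts and there was 1 library per group, so no count model and no p-value was used. The members, the 8 pathway lists, the 7 marker lists and the naming rule were chosen with earlier results of these data known. Named were the members, Ascl2, some of the list members with the largest ratios, nearest listed neighbours and the 3 genes most like each member. Some list members with larger ratios than those named, such as Map2k3 and Rcan1, were left out. Other list members (such as Hdac4, Cabin1, Ep300, Camk2d, Ywhae and Irf8), Gm45929 and marker genes were named after their values were seen. One gene of the lists is not reported here. The code for ratios and calls was run on simulated data with known differences, counting noise only and an assumed depth. That simulation held no variation between libraries, so it gives no error rate for the calls made here. Alternatives were pseudocounts of 0.1 and 5, filters, thresholds of 1.5-fold and 3-fold and 4 rescalings. Python 3.11.15, pandas 2.3.3, NumPy 2.4.6 and matplotlib 3.10.9 were used.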

Additional observations from a re-analysis of the deposited data

How the results depend on the processing

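Over 2 pseudocounts and 4 rescalings, the log2 ratio of Mef2b ran from 1.78 to 2.21 and that of Mef2a from 0.17 to 0.29. Mef2c ran from 0.13 to 0.25 and Mef2d from −0.36 to −0.25. Each of the 24 values kept its side of 2-fold. A change of direction was possible only for Mef2d under the rescalings, and it did not occur. Every rescaling raised the Ascl2 values, and a pseudocount cannot change a sign. The background counts of 188 genes higher and 88 lower depended on the pseudocount and, by construction, on the threshold. They were 370 and 220 with a pseudocount of 0.1, 103 and 20 with 5, 615 and 530 at 1.5-fold, and 41 and 15 at 3-fold. They were 144 and 61 with a filter of 5. Without the 7 genes whose values carry over 6 significant digits, none of them a MEF2 gene, they were 181 and 88; this alternative was chosen after the data were seen. At 1.5-fold, 4 entries of the pathway lists were past the threshold, 2 of them germinal centre factors. List medians moved by up to 0.11 with the sum rescaling and only that of the class IIa deacetylases and corepressors changed sign, from −0.10 to 0.0085. No paired analysis was possible because there was 1 library per group. With unknown depth and 1 library per group, no interval can be given for any MEF2 ratio.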
